A study of Homo sapiens with 4 samples.

Results

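The genes described here are 9 genes of the NRF2 antioxidant response in BEAS-2B, a human cell line derived from bronchial epithelium and immortalized. They are the transcription factor NRF2 (gene NFE2L2), its inhibitor KEAP1, and the NRF2 targets HMOX1, NQO1, GCLC, GCLM, GSR, TXNRD1 and SRXN1. They were chosen by name, for their roles in glutathione, thioredoxin, quinone and heme metabolism, from the 23004 gene names in the files, and all 9 were found. Total RNA was sequenced from 2 untreated libraries and from 2 libraries of cells exposed to 100 µM formaldehyde for 48 h, a small aldehyde that crosslinks protein and DNA and that cells bind to glutathione for removal. Both groups are the same line with no genetic change named in the labels. Expression is given as FPKM, the fragments assigned to a transcript divided by its length and by the library's mapped fragments, summed over the annotated transcripts of a gene, so that levels can be set side by side between genes.

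In resting cells KEAP1 binds NRF2 and, with the ubiquitin ligase scaffold CUL3, marks it for destruction by the proteasome. Electrophiles and oxidants react with cysteines of KEAP1, NRF2 is then spared, and with a small MAF partner it binds antioxidant response elements near its target genes. The control acts on the protein, so the messenger RNA of NFE2L2 need not follow NRF2 activity, and the target genes are the usual readout. In airway epithelium the pathway is known for the defence against inhaled oxidants and aldehydes.

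The core of the antioxidant response element, TGACNNNGC, was searched on both strands of the RefSeq promoter windows, which run from 250 bases before to 50 bases after a gene start. The table matched 7 of the 9 genes by symbol, with 10 windows, since several genes have more than 1 start. GSR and HMOX1 have no entry. The core was in 4 of these 10 windows, belonging to GCLM, KEAP1 and TXNRD1, and in 13.3% of all 35116 windows. The related AP-1 motif TGANTCA, which can overlap the element, was in 0 of the 10 windows and in 7.71% of all. The stretches below show where the core lies upstream of the start, 5′ to 3′ along the gene's strand, with the core in capitals (build GRCh38.p14). A match is a description of the letters and not evidence of binding. Sequence outside these windows was not searched, so a gene without a match here may have the element elsewhere.
GCLM, chr1:93909440-93909480, minus strand: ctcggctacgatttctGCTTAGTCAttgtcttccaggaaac
KEAP1, chr19:10502778-10502841, minus strand: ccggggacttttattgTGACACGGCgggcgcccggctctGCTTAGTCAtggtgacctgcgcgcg
TXNRD1 upstream start, chr12:104215664-104215704, plus strand: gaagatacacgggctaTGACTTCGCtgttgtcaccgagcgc
TXNRD1 downstream start, chr12:104286914-104286954, plus strand: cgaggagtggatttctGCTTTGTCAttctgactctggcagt
GCLM and KEAP1 share the core TGACTAAGC, read on the strand opposite to the gene. It ends 26 bases before the start of GCLM and 23 bases before that of KEAP1.

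The recovered depth was 14.2 to 26.5 M mapped fragments a library (M, mega), and 12049 to 12379 genes reached 1 FPKM. Separate cultures for the replicates are not stated in the labels. The p-values therefore rest on the variation among 4 libraries, part or all of which can be technical. Of 4 tested epithelial markers 4 were higher with formaldehyde, beside 6831 of the 12407 tested genes. The groups separated upward in 3 of the 4, beside 16.2% of all tested genes. KRT8 was at 291 and 290 FPKM in the untreated and 447 and 416 FPKM in the exposed libraries. KRT18 was at 226 and 206 against 358 and 418 FPKM, and KRT7 at 191 and 140 against 531 and 319 FPKM. Too low to be tested, E-cadherin (CDH1) was at 0.168 and 0.631 against 0.0610 and 0.117 FPKM. KRT19, also untested, was at 0.0940 and 0.378 against 0.0555 and 0.0533 FPKM, so both were lower with formaldehyde. With no filter, 4 of 6 epithelial markers were higher. KRT5 was listed at 0 throughout. Of 8 mesenchymal markers 4 were tested. The groups separated upward in 1 and downward in 1 of the 4, beside 16.2% and 10.7% of all tested genes. The filament gene VIM separated upward, at 782 and 642 FPKM in the untreated and 1043 and 786 FPKM in the exposed libraries. The collagen gene COL1A1 separated downward, at 279 and 568 FPKM in the untreated and 137 and 254 FPKM in the exposed libraries. CDH2 was at 46.2 and 36.5 against 42.9 and 35.0 FPKM, and FN1 at 59.9 and 46.6 against 96.9 and 25.4 FPKM. COL1A2 reached no more than 1.34 FPKM, LUM 0.405, DCN 0.0725 and COL3A1 0.0214 FPKM. PTPRC, which marks leukocytes, stayed at or under 0.0232 FPKM. The 9 leukocyte markers summed to 18.4 and 31.4 FPKM in the untreated and 51.8 and 32.7 FPKM in the exposed libraries. The largest part of that sum in every library was CD68, at 12.8 and 16.4 against 42.8 and 22.0 FPKM. CORO1A was at 1.53 and 2.69 against 4.75 and 4.02 FPKM. CD14 was lower on average with formaldehyde, at 3.75 and 12.0 against 1.77 and 6.23 FPKM, with overlapping groups. The part of these markers in the results was not tested.

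No difference between formaldehyde and untreated cells passed the test for any of the 9 genes, and the groups overlapped for each of them. By limma with Benjamini-Hochberg adjustment over all 12407 tested genes, 0 of the 9 passed an adjusted p of 0.05, against 0.153% of all tested genes, and 0 had an unadjusted p under 0.05, against 2.76%. The first share rests on 19 genes and moves with the genes admitted, to 1 of 12015 among genes of at least 300 nt and 0 of 18317 with no filter (limma, 652 at an unadjusted p under 0.05). The groups overlapped in 9 of 9, whereas over all tested genes they did not overlap in 26.9%. The median difference of the 9 genes in log2(FPKM + 1) was 0.02, against 0.03 over all tested genes, with 5 higher and 4 lower. Dropping untreated replicate 1 moved that median to 0.29, and dropping untreated replicate 2 turned it to -0.16. KEAP1, the median gene, turned to the other side with rescaled libraries (-0.019 by median ratios).

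**Figure D1:**
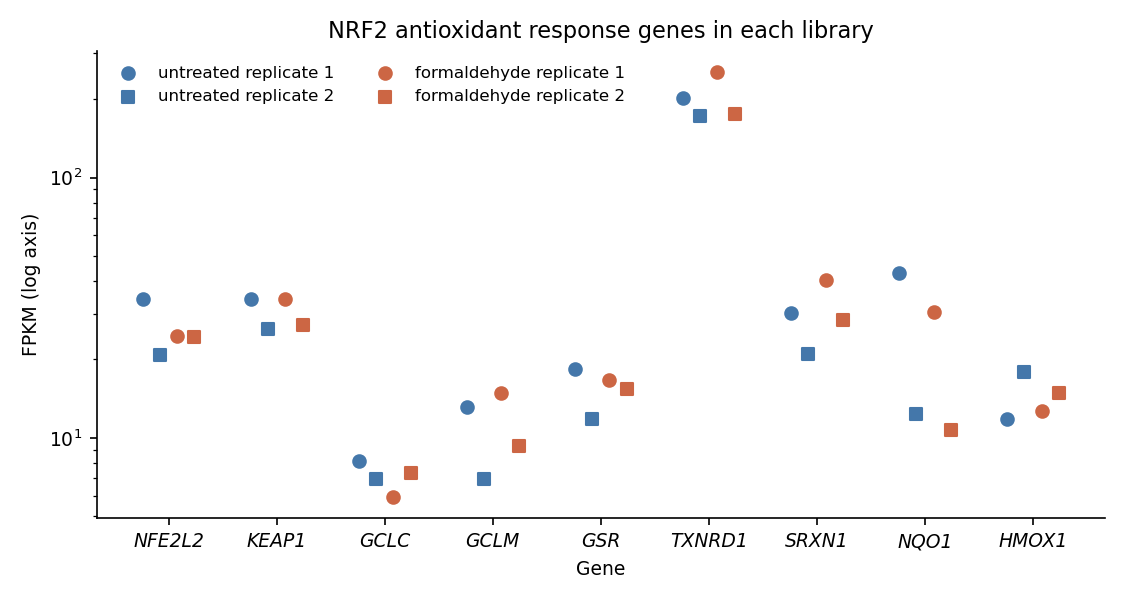
FPKM (log axis) of the 9 genes in each of the 4 libraries; blue marks untreated and orange formaldehyde, circles replicate 1 and squares replicate 2. For every gene the orange and the blue points interleave, and TXNRD1 lies above the others in every library, at 173 to 254 FPKM.

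TXNRD1 was the most abundant of the 9 in every library and GCLC the least abundant in every library. Averaged over the 4 libraries, TXNRD1 stood at 201 FPKM, above 96.7% of the tested genes. KEAP1 at 30.4, SRXN1 at 29.9, NFE2L2 at 25.95 and NQO1 at 24.1 FPKM followed, and their ranges over the libraries overlapped. GSR at 15.5, HMOX1 at 14.3 and GCLM at 11.1 FPKM came next, with ranges that overlapped each other and that of NQO1, which ran from 10.7 to 43.0 FPKM. GCLC stood at 7.10 FPKM, with a range of 5.94 to 8.17 FPKM that reached into that of GCLM.

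Among the regulators, NFE2L2 (chromosome 2, hg19, 178095033 to 178129859, minus strand) was at 34.1 FPKM in untreated replicate 1 and 20.9 FPKM in replicate 2. With formaldehyde it was at 24.5 FPKM in replicate 1 and 24.3 FPKM in replicate 2, the order kept in the sentences below. Both formaldehyde libraries lay between the untreated ones. The group means were 27.5 ± 9.34 and 24.4 ± 0.172 FPKM (SD, n = 2 each), and the difference on the log2 scale was -0.12 ± 0.28 (SE, limma adjusted p = 0.9999). It turned to 0.22 when untreated replicate 1 was left out. KEAP1, the adaptor that presents NRF2 to the ligase (chromosome 19, hg19, 10596796 to 10614054, minus strand), was at 34.2 and 26.3 FPKM in the untreated and 34.3 and 27.02 FPKM in the exposed libraries. The higher library of each group and the lower library of each group were nearly level, with a log2 difference of 0.02 ± 0.24 (SE, limma adjusted p = 0.9999). Its sign turned with median-ratio scaling (-0.019) and with quantile normalization (-0.030), and also when untreated replicate 2 (-0.16) or formaldehyde replicate 1 (-0.14) was left out.

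Of the genes of glutathione, GCLC and GCLM encode the catalytic and the modifier subunit of glutamate-cysteine ligase, which makes the first and limiting step of glutathione synthesis. GCLC (chromosome 6, hg19, 53362140 to 53409927, minus strand) was at 8.17 and 6.96 FPKM in the untreated and 5.94 and 7.34 FPKM in the exposed libraries. The lowest value was formaldehyde replicate 1, and replicate 2 fell between the untreated libraries. The log2 difference was -0.17 ± 0.22 (SE, limma adjusted p = 0.9999). GCLM (chromosome 1, hg19, 94352590 to 94375012, minus strand) was at 13.2 and 6.97 FPKM in the untreated and 14.9 and 9.29 FPKM in the exposed libraries. Both replicate 1 libraries were above both replicate 2 libraries. GCLM has a single annotated transcript, for which 530 to 635 fragments were recovered in each library. The bounds that the authors' software deposited for counting error, 12.1 to 14.2 FPKM in untreated replicate 1 and 6.37 to 7.58 FPKM in untreated replicate 2, do not overlap. The log2 difference with formaldehyde was 0.27 ± 0.38 (SE, limma adjusted p = 0.9999), and the 2 subunits lay on opposite sides of 0. GSR, the reductase that returns oxidized glutathione to its reduced form (chromosome 8, hg19, 30535580 to 30585486, minus strand), was at 18.3 and 11.8 FPKM in the untreated and 16.6 and 15.4 FPKM in the exposed libraries. Both formaldehyde libraries lay between the untreated ones, with a log2 difference of 0.11 ± 0.27 (SE, limma adjusted p = 0.9999). The direction of GCLM and of GSR turned when a single library was left out, to -0.15 and -0.18 without untreated replicate 2. GCLM also turned, to -0.05, without formaldehyde replicate 1.

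Among the thioredoxin genes, TXNRD1 encodes the cytosolic reductase that keeps thioredoxin reduced (chromosome 12, hg19, 104609559 to 104744062, plus strand). It was at 203 and 173 FPKM in the untreated and 254 and 176 FPKM in the exposed libraries. Formaldehyde replicate 1 was the highest library, while formaldehyde replicate 2 lay between the untreated libraries. The group means were 188 ± 21.1 and 215 ± 55.8 FPKM (SD, n = 2 each), and the log2 difference was 0.18 ± 0.28 (SE, limma adjusted p = 0.9999). Leaving out formaldehyde replicate 1 turned it to -0.09. SRXN1, the sulfiredoxin that repairs overoxidized peroxiredoxins (chromosome 20, hg19, 627268 to 633890, minus strand), was at 30.2 and 20.96 FPKM in the untreated and 40.3 and 28.3 FPKM in the exposed libraries. Formaldehyde replicate 2 lay below untreated replicate 1, so the groups overlapped. Its log2 difference of 0.41 ± 0.29 was the highest of the 9 (SE, limma unadjusted p = 0.220, adjusted p = 0.9999), and it ran from 0.16 to 0.66 when each library was left out in turn. SRXN1 and GCLC were the only 2 of the 9 whose direction held in all 4 of those fits, and GCLC ran from -0.30 to -0.036.

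NQO1, the quinone reductase that is among the most used markers of NRF2 activity (chromosome 16, hg19, 69743304 to 69760533, minus strand), varied most between libraries of the same group. It stood at 43.0 and 12.3 FPKM in the untreated libraries, 3.49-fold apart, and at 30.4 and 10.7 FPKM in the formaldehyde libraries, 2.83-fold apart. In each group replicate 1 was the higher, and the groups overlapped. Its within-group SD on the log2 scale, 1.12, was above that of 97.3% of tested genes. The difference with formaldehyde was -0.34 ± 0.73 (SE, limma adjusted p = 0.9999). It became -1.20 when untreated replicate 2 was left out, and it turned to 0.53 when untreated replicate 1 was and to 0.37 when formaldehyde replicate 2 was. HMOX1, which degrades heme (chromosome 22, hg19, 35777060 to 35790207, plus strand), was at 11.9 and 17.9 FPKM in the untreated and 12.6 and 14.9 FPKM in the exposed libraries. It ran the other way from NQO1 among the libraries, with replicate 2 higher in each group, and both formaldehyde libraries lay between the untreated ones. From 249 to 655 fragments were recovered for its single transcript, and its log2 difference was -0.08 ± 0.26 (SE, limma adjusted p = 0.9999). That turned to 0.20 when untreated replicate 2 was left out and to 0.03 when formaldehyde replicate 1 was.

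**Figure D2:**
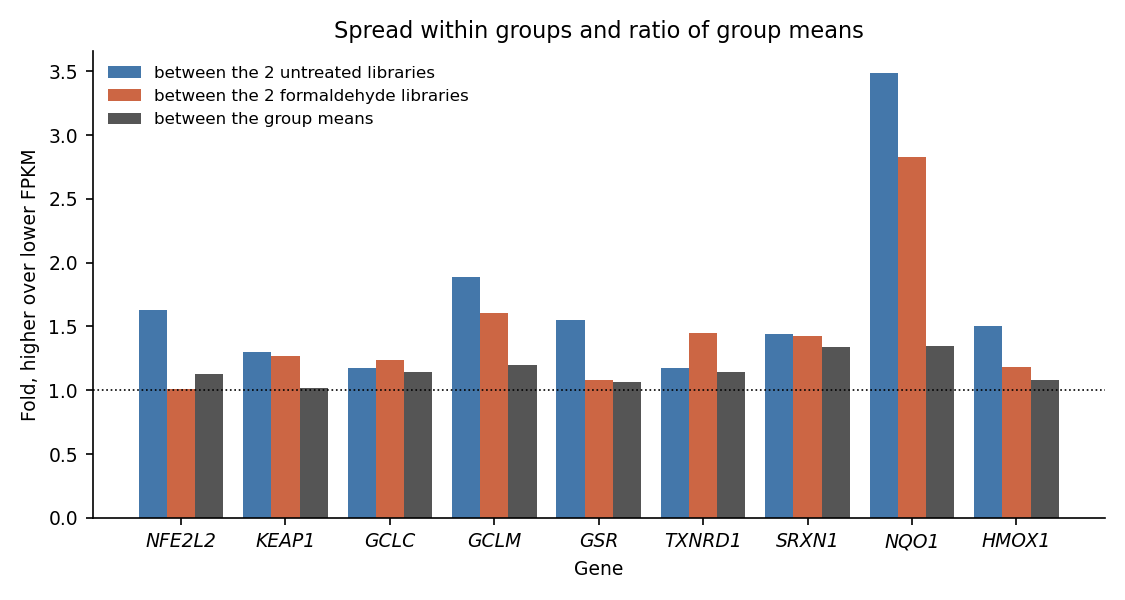
Fold (higher over lower FPKM) between the 2 untreated libraries, between the 2 formaldehyde libraries and between the group means, for each gene; the dotted line marks equal values. NQO1 reaches 3.49-fold between untreated libraries, and for all 9 genes the grey bar of the group means is lower than the blue bar. The share of all tested genes with this order was not counted.

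For all 9 genes the ratio of the group means was smaller than the fold between the 2 untreated libraries. Ratios of group means ran up to 1.35-fold, for NQO1, while the untreated libraries differed by 1.17-fold for TXNRD1 and GCLC to 3.49-fold for NQO1. In 7 of the 9 the difference on the log2 scale was smaller than the within-group SD, and the exceptions were GCLC and SRXN1. The shares of all tested genes that meet these conditions were not counted, so neither count is a trait particular to the 9 genes.

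Intervals give the sizes of change left possible by limma, which draws each gene's variance toward that of the other tested genes. Their width therefore does not rest on the 2 libraries a group alone. Separate cultures are not stated, so they need not cover variation between cultures. The 95% interval of the difference, read as a ratio, was 0.552 to 1.52 for NFE2L2, 0.658 to 1.56 for KEAP1, 0.604 to 1.31 for GCLC and 0.590 to 1.52 for HMOX1. A 2-fold increase lay outside the interval for 6 of the 9 genes and inside it for GCLM (up to 2.37), SRXN1 (up to 2.24) and NQO1 (up to 2.94). A 2-fold decrease lay outside the interval for every gene but NQO1, whose lower bound was 0.213. These intervals are on the log2(FPKM + 1) scale, cover single genes and are not adjusted over the 9.

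**Figure D3:**
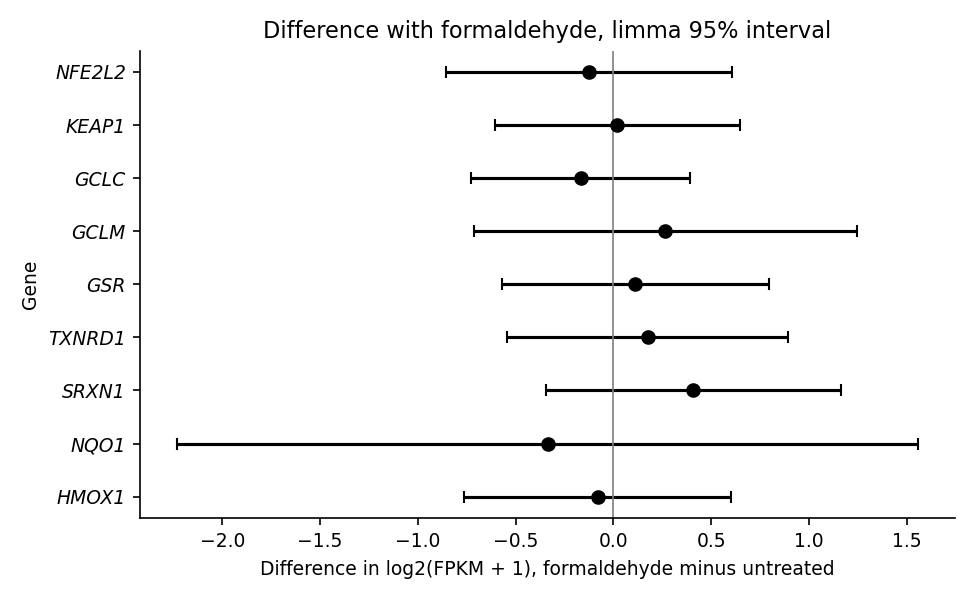
Difference in log2(FPKM + 1), formaldehyde minus untreated, for the 9 genes, with the limma 95% interval. All 9 intervals hold 0, and that of NQO1 is the widest, from -2.23 to 1.56.

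The files also give each annotated transcript, so the expression of a gene can be traced to its isoforms, with the limit that overlapping isoforms share most reads and the split between them is an estimate. GCLM, SRXN1 and HMOX1 have 1 annotated transcript each, and GCLC and GSR came nearly wholly from 1 of theirs. For NFE2L2 the transcript NM_006164, which encodes the full-length protein, made up 80.5% and 85.9% of the gene's FPKM in the untreated libraries and 87.4% and 75.1% in the formaldehyde libraries. The remainder fell almost wholly to NM_001145412, which starts downstream and encodes a protein with a shorter N-terminus. In untreated replicate 2 the deposited bounds of NM_006164 were as wide as 9.94 to 25.9 FPKM, so that library resolves the split poorly.

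KEAP1 has 2 transcripts that differ in their first exon and encode the same protein. NM_012289 held 67.8% and 92.5% of the gene in the untreated libraries and 81.4% and 76.3% in the formaldehyde libraries, which both lay between the untreated values. For TXNRD1, 2 of the 5 transcripts carried nearly all of the signal. NM_182729 held 65.9% and 49.2% untreated and 62.5% and 56.2% with formaldehyde, and NM_003330 held 29.5% and 45.7% untreated and 31.7% and 39.9% with formaldehyde, so the groups overlapped for both. For NQO1, NM_000903 held 96.0% and 100.0% untreated and 95.3% and 84.5% with formaldehyde. That share was lower in each exposed library than in either untreated one, but the nearest values of the groups, 96.0% and 95.3%, were closer together than the untreated libraries were. The other 2 transcripts of NQO1 were each at 1.72 FPKM or less. No test was run on these shares.

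**Figure D4:**
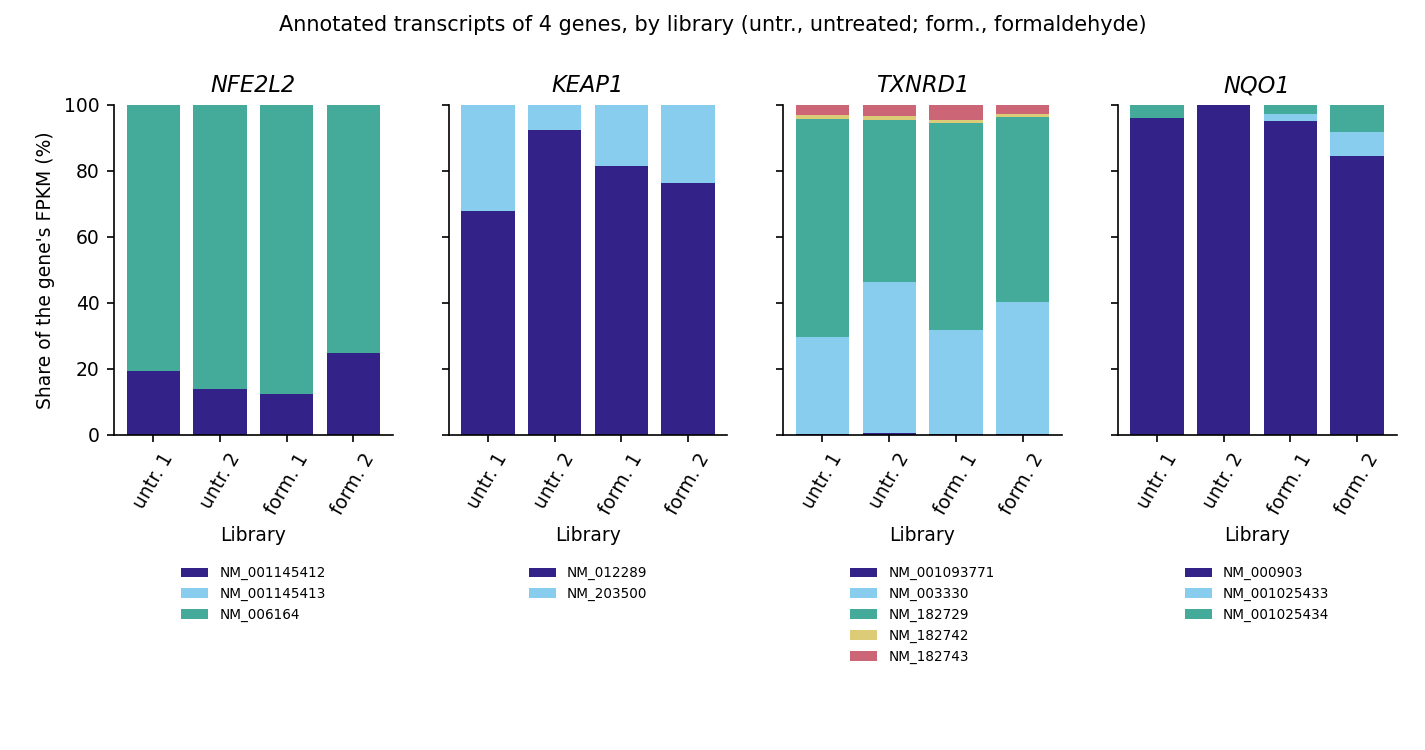
Share (%) of the FPKM of NFE2L2, KEAP1, TXNRD1 and NQO1 that falls to each annotated transcript, 1 stacked bar a library. For KEAP1 the share of NM_012289 runs from 67.8% to 92.5% between the untreated libraries, and both formaldehyde libraries lie between them.

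A wider list of 35 other NRF2 target genes gave no gene past the threshold either (limma, 0 of 27 tested). The list held 2 at an unadjusted p under 0.05 (limma), beside 2.76% of all tested genes. Its median log2 difference was -0.10, with 18 lower and 9 higher, a median that became -0.20 when untreated replicate 2 was dropped and -0.06 when formaldehyde replicate 1 was. The exposed libraries were both under the untreated pair in 8 of the 27 and both over it in 0, where 10.7% and 16.2% of all tested genes did so. AKR1C3, an aldo-keto reductase, was at 3.24 and 2.70 FPKM in the untreated and 1.53 and 0.699 FPKM in the exposed libraries, a log2 difference of -0.93 ± 0.29 (SE, limma unadjusted p = 0.0244, adjusted p = 0.9999). Its reads can in part be shared with the related AKR1C1 and AKR1C2, which were under 1 FPKM. PIR, the iron-binding protein pirin, was at 8.72 and 7.49 FPKM in the untreated and 2.92 and 5.14 FPKM in the exposed libraries, a log2 difference of -0.89 ± 0.29 (SE, limma unadjusted p = 0.0281, adjusted p = 0.9999). TRIM16, a ubiquitin ligase with the related gene TRIM16L, was at 6.12 and 5.66 FPKM in the untreated and 4.25 and 4.37 FPKM in the exposed libraries. The groups did not overlap for AKR1C3, PIR or TRIM16.

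Among 14 tested partners and regulators of NRF2 turnover, 0 passed (limma), with a median of 0.07. An unadjusted p under 0.05 (limma) was found for 1, beside 2.76% of all tested genes. MAFF, a small MAF protein of the kind that pairs with NRF2 on DNA, was at 14.2 and 25.9 FPKM in the untreated and 36.7 and 37.6 FPKM in the exposed libraries. Both formaldehyde libraries were above both untreated ones, with a log2 difference of 0.91 ± 0.32 (SE, limma unadjusted p = 0.0358, adjusted p = 0.9999). MAFG, another small MAF, stood at 14.7 and 18.1 against 21.5 and 18.6 FPKM. BACH1, the repressor that competes with NRF2 for the same elements, stood at 9.46 and 7.12 against 11.2 and 8.91 FPKM, with overlapping groups. In this list 2 of 14 genes separated the groups upward and 2 downward, where 16.2% and 10.7% of all tested genes did so. The median turned to -0.12 without untreated replicate 2, to -0.006 without formaldehyde replicate 1 and to -0.022 with the highest transcript of each gene, and it was 0.22 without untreated replicate 1.

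The lists for the systems that the 9 genes feed gave no calls either. Of 29 tested genes of glutathione synthesis and use, 0 passed (limma, 0 at an unadjusted p under 0.05), the median was 0.08, and 3 of 29 separated the groups upward and 3 downward, beside 16.2% and 10.7% of all tested genes. The median was 0.16 without untreated replicate 1 and about 0 without untreated replicate 2 (-0.001) and with quantile normalization (-0.009). GSTA4, a glutathione transferase for aldehydes of lipid peroxidation, was at 3.46 and 4.05 FPKM in the untreated and 0.989 and 2.69 FPKM in the exposed libraries. Of 11 tested genes of thioredoxins, peroxiredoxins and sestrins, 0 passed (limma, 0 at an unadjusted p under 0.05), the median was 0.26, and 11 of 11 had a difference above 0, beside 6831 of the 12407 tested genes. That count was 10 of 11 with either rescaling and 9 of 11 without untreated replicate 2 (median 0.15) or formaldehyde replicate 1 (median 0.23). The groups separated upward in 3 of 11, beside 16.2% of all tested genes. TXNRD2, the mitochondrial thioredoxin reductase, was at 15.002 and 10.6 FPKM in the untreated and 20.2 and 15.04 FPKM in the exposed libraries, and SESN2, a sestrin, at 6.91 and 9.87 against 17.4 and 11.05 FPKM.

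SOD2, the mitochondrial superoxide dismutase, was the gene of the superoxide and hydrogen peroxide list with the lowest difference. It was at 329 and 239 FPKM in the untreated and 92.1 and 190 FPKM in the exposed libraries, so the exposed libraries were both under the untreated pair. The log2 difference was -1.08 ± 0.42 (SE, limma unadjusted p = 0.0497, adjusted p = 0.9999). Catalase (CAT), which breaks down hydrogen peroxide, stood at 21.1 and 20.1 against 14.8 and 18.1 FPKM, and SOD1, the cytosolic dismutase, at 427 and 317 against 376 and 439 FPKM. Of the 4 tested genes of this list, 0 passed (limma, 1 at an unadjusted p under 0.05, beside 2.76% of all tested genes).

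**Figure D5:**
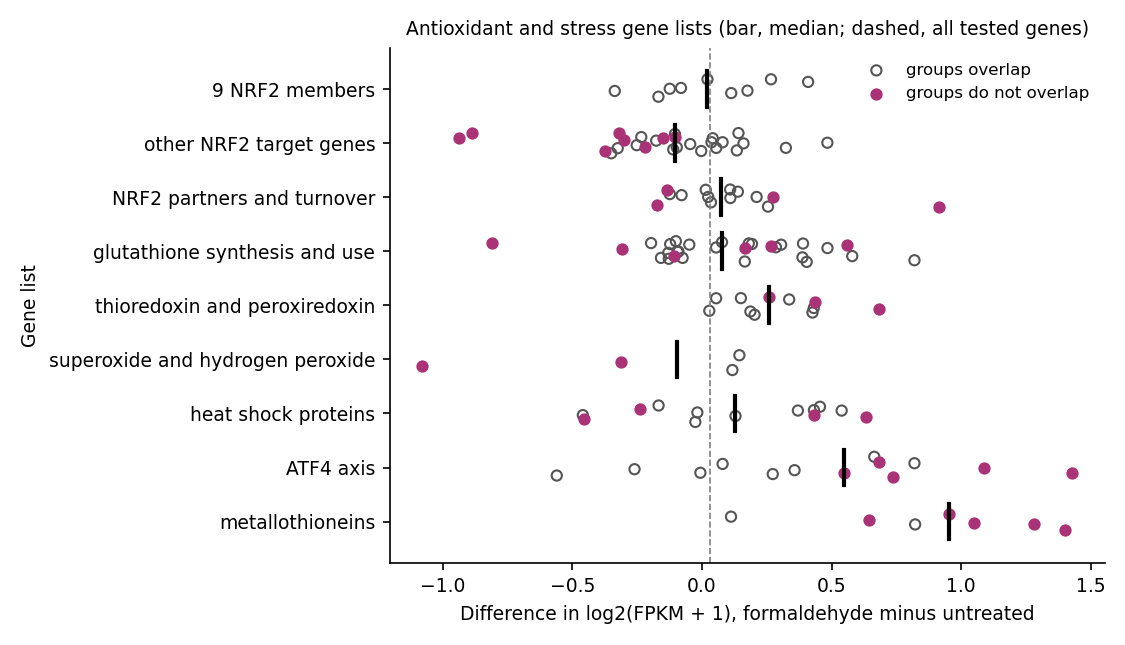
Difference in log2(FPKM + 1), formaldehyde minus untreated, of each tested gene in 9 lists; filled points are genes whose groups do not overlap, black bars are medians, and the dashed line is the median of all tested genes at 0.03. The 9 NRF2 genes have only open points around a median of 0.02, while metallothioneins have a median of 0.95.

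Other stress lists give a scale for these values, as a description with no test between lists. The lists are not fully separate, since the ATF4 list shares SESN2 with the thioredoxin list and CHAC1 with the glutathione list. The median log2 difference was 0.95 over 7 tested metallothioneins, metal-binding proteins that metals and oxidants induce, and their groups separated upward in 5, beside 16.2% of all tested genes. That median was 0.60 without formaldehyde replicate 1, 0.62 without untreated replicate 2 and 1.36 without formaldehyde replicate 2. The median was 0.55 over 13 genes of the ATF4 axis, which answers to amino acid and translation stress, with 5 separated upward, but 0.10 without untreated replicate 1 and 0.88 without untreated replicate 2. Over 13 heat shock proteins it was 0.13, with 2 upward and 2 downward (10.7% downward over all tested genes). Leaving out untreated replicate 1 gave 0.41, and leaving out untreated replicate 2 gave -0.03. No gene of these 3 lists passed the threshold by limma. An unadjusted p under 0.05 (limma) was found for 4 of 7, 3 of 13 and 1 of 13, beside 2.76% of all tested genes. SLC7A11, the cystine carrier that both NRF2 and ATF4 can switch on, was at 5.82 and 5.48 FPKM in the untreated and 6.31 and 5.74 FPKM in the exposed libraries, an overlap (named for its place in both lists, after its values were seen).

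The mean pattern of the 9 genes over the libraries, as log2(FPKM + 1) centred on each gene's own mean, was 0.24 and -0.27 in untreated replicates 1 and 2 and 0.18 and -0.15 in formaldehyde replicates 1 and 2. The higher library of each group was replicate 1. Among the 130 other tested genes of the lists, those nearest to this pattern by root mean square distance over the 4 libraries were DPP3 (0.05), GSK3B (0.06) and DNAJA1 (0.07). The list of nuclear and small RNA was taken as a possible sign of RNA quality, a link that was not tested. Over its 4 tested genes the median against the untreated mean was 0.50 in formaldehyde replicate 1 and -1.16 in replicate 2. In replicate 2 the genes were far apart, with RMRP at -1.95 and RPPH1 at -2.10 but MALAT1 at -0.38 and NEAT1 at -0.11. The 9 genes had medians of 0.19 and -0.05 in the same libraries. The untreated libraries also differed in this RNA, with MALAT1 at 27.2 and 92.5 FPKM and NEAT1 at 218 and 596 FPKM. In the formaldehyde libraries MALAT1 was at 38.7 and 38.5 FPKM and NEAT1 at 485 and 335 FPKM. RPPH1 was at 8.18 and 6.83 FPKM in the untreated and 11.7 and 0.976 FPKM in the exposed libraries, and RMRP at 26.2 and 14.5 against 56.9 and 4.33 FPKM. The part of RNA quality in the spread of the 9 genes was not tested.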

How the data were processed

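Per the submitters' processing notes, FastQC 0.10.0, STAR 2.5.2 and Cufflinks 2.0.2 were used with builds hg19 and GRCh37; the sources used here do not give trimming, strand setting or the handling of multi-mapped reads. The deposited FPKM values are the authors' Cufflinks estimates, per the file attributes, 1 library a file, matched to samples by title. FPKM of 40255 transcripts, less 894 with no gene name, were summed by gene. Depth and fragments of genes with 1 transcript were recovered from the deposited coverage and upper bounds, with a read length of 51 nt. Genes with a mean of at least 1 FPKM (12407) were tested on log2(FPKM + 1), which understates changes of low genes, with limma 3.58.1 in R 4.3.3 (trend, no covariate, two-sided, Benjamini-Hochberg over all genes, threshold 0.05). The test was checked on simulated data with the typical spread at a gene's level, which leaves out spread particular to a gene. Promoter windows are RefSeq's (GRCh38.p14); gene coordinates are the files' (hg19). EID3 lies within TXNRD1 on the same strand, at 0.567 to 3.45 FPKM.

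The members and lists were chosen with earlier results of these data known. Named genes were the 9 members, the 3 genes of each other list with the largest absolute moderated t, and the 3 nearest in pattern. Not all of those 3 a list are named. Marker genes, RMRP, CHAC1 and SLC7A11 stand outside this rule. Alternatives covered the pseudocount, the filter, scaling, transcript length, the highest transcript, the trend, the replicate number as a block and each library left out. Python 3.11.15 and matplotlib 3.10.9 made tables and figures.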

Additional observations from a re-analysis of the deposited data

How the results depend on the processing

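None of the 9 genes passed under any of the 9 alternatives or the 4 fits without a library, with a smallest limma adjusted p of 0.677, and 0 genes of the other lists passed. A fit without a library leaves 1 group with a single library, which is assumed to vary like the pair of the other group, so these fits are a weak check. In them 31 to 55 genes of all tested passed, the median of the 9 genes ran from -0.16 to 0.29, and that of the other NRF2 targets from -0.20 to -0.061. Of all tested genes, 19 passed in the fit reported; 0 did with no filter (limma), 1 among genes of at least 300 nt and 29 with the replicate number as a block. Outside the fits without a library, 79 of 81 member values kept their direction, the exceptions being KEAP1 at -0.019 with median-ratio scaling and -0.030 with quantile normalization. Without a library, the log2 difference ran from -0.46 to 0.22 for NFE2L2, -0.16 to 0.20 for KEAP1, -0.15 to 0.68 for GCLM, -0.18 to 0.41 for GSR, -0.091 to 0.44 for TXNRD1, -1.20 to 0.53 for NQO1 and -0.36 to 0.20 for HMOX1. The cause was not tested.

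The labels do not say whether libraries with the same replicate number were handled together, and both replicate 1 libraries (16.8 and 14.2 M fragments) were shallower than both replicate 2 libraries (26.5 and 22.2 M). The difference between replicates 1 and 2 correlated between the groups with r = 0.25 across 12407 genes, which are not independent replicates. Replicate 1 was higher in both groups in 7 of the 9 genes and in 37.6% of all tested genes. The replicate block changed no call of the 9. Counting bounds of a whole gene were read only for the genes with 1 transcript, GCLM, SRXN1 and HMOX1, at 249 to 1482 fragments a library. What limits the precision was not tested.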
